A study of Mus musculus with 6 samples.

Results

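The syndecans and glypicans are the cell surface carriers of heparan sulfate, and their transcripts were followed in muscle stem cells (MuSCs) of control, mdx and Sirt6mKO/mdx mice. The genes were chosen by symbol and not by a cut on their values, although earlier results of these data were known. They are Sdc1 to Sdc4 of the syndecan family and Gpc1, Gpc2, Gpc3, Gpc4 and Gpc6 of the glypican family. These are 9 of the 22706 genes in the deposited table. Total RNA of freshly sorted cells was depleted of ribosomal RNA and sequenced, with 2 libraries in each of 3 groups. Control mice were wild type. Mdx mice carry the mdx mutation of the dystrophin gene, and Sirt6mKO/mdx mice, the third group, carry it together with a deletion of Sirt6, a histone deacetylase gene. The labels give C57BL/6 as the strain of every animal and state no age. The mdx allele came from a C57BL/10ScSn line. According to the study's methods, exons of a floxed Sirt6 were removed by a Cre recombinase that is always active and is driven by the Pax7 promoter, so that the deletion is present in the whole muscle lineage from development on, and littermates served as controls. The Sirt6mKO line was also crossed with a ROSA26-YFP reporter line. Whether the mdx mice carried the Cre driver or the reporter is not stated. The effects of these cannot be told apart from that of the deletion. Cells positive for Sca1, CD45 or CD31 were depleted, and MuSCs were sorted by integrin alpha 7 and CD34 or by a fluorescent Pax7 reporter. Which of these gates gave each library, and whether a library came from 1 animal or several, is not stated, so p-values measure only the spread between these libraries.

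Syndecans are proteins that cross the membrane once, with heparan sulfate chains outside and a short tail inside that binds adaptor proteins such as syntenin. Glypicans are held at the outer surface by a lipid anchor and carry their chains close to the membrane. Through these chains both families bind growth factors such as FGF, HGF, VEGF and Wnt proteins and present them to their receptors. SDC3 and SDC4 are used as surface markers of MuSCs. Both were found on these cells together with the FGF and HGF receptors, and mice that lack either gene have altered muscle regeneration.

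Of the 9 transcripts, Sdc4 had the largest change in mdx against control, and Sdc1 was another syndecan called there, so the bases before their RefSeq starts are shown. They come from RefSeq promoter windows of GRCm38.p6 and hold no annotated exon. The Sdc4 stretch lies upstream of 1 of the 2 GENCODE transcripts of Sdc4 and in the first intron of the other, which starts farther upstream, so it falls within the gene's span. Capitals mark matches on either strand to the GC box GGGCGG, to the NF-kB consensus and to the motif TATAA. The Sdc4 sequence covers chr2:164443189-164443438 on the minus strand (250 bases, 68.0% G or C), and the Sdc1 sequence covers chr12:8771182-8771322 on the plus strand (141 bases, 69.5% G or C).
Sdc4: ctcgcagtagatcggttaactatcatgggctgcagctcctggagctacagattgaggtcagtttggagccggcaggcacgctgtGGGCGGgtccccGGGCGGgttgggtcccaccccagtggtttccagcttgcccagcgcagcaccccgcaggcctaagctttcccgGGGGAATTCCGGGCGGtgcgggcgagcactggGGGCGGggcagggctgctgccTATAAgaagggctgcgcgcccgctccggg
Sdc1: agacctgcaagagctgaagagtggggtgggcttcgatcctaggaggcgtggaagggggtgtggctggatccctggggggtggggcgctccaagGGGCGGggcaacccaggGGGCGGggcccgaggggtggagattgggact
The Sdc4 stretch held 4 GC boxes, 1 match to the NF-kB consensus that abuts a GC box, and 1 TATAA. The Sdc1 stretch held 2 GC boxes and neither of the other motifs, whereas the whole window of Sdc1, which also covers exons, held 3 GC boxes and 2 matches to TATAA. Of 32851 promoter windows of 300 bases (250 before and 50 after the start), 35.66% held a GC box, 4.51% the NF-kB consensus and 24.87% TATAA. Windows were found for 6 of the 9 genes (Sdc1, Sdc3, Sdc4, Gpc2, Gpc3 and Gpc4). All 6 held a GC box, and the window of Sdc4 was the 1 with the NF-kB consensus. The AP-1 motif TGANTCA and the CRE motif TGACGTCA, present in 7.81% and 1.79% of all windows, were in none of the 6. These matches describe letters in the windows and not binding.

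The libraries held 4397632 to 9745218 approximate reads. Of the 10 MuSC markers, 0 were called by limma in any comparison, and 2, 3 and 0 had an unadjusted p under 0.05 in mdx against control, Sirt6mKO/mdx against mdx and Sirt6mKO/mdx against control. Pax7, the transcription factor that defines MuSCs, had normalized read counts from 2167 to 3236. Of the surface proteins used to deplete other cells, Ptprc, which encodes CD45, was at 0 to 19, Ly6a, which encodes Sca1, at 3 to 79, and Pecam1, which encodes CD31, at 20 to 199. Ly6a was called higher in mdx than in control (log2 2.73, adjusted p 0.0363). Of the 10 fibro-adipogenic markers, Col3a1 was at 15579 to 30817, Dpt at 2024 to 3504 and Dcn at 858 to 2087, Col1a1 and Col1a2 lay between 196 and 6265, and Pdgfra, Lum, Smoc2, Mfap5 and Ly6a between 3 and 316. Of the 8 endothelial markers, Tek was at 348 to 669 and Pecam1 at up to 199, and the other 6 were between 0 and 30. Sirt6 itself stood at 41 and 32 for control, 33 and 40 for mdx and 37 and 30 for the third group. The values are per gene and the deletion removes some exons only, so Sirt6 does not check the label, and what is said of the third group is said of the libraries labelled Sirt6mKO/mdx. The Y-linked gene Ddx3y was at 3 and 8 in control but between 1024 and 1767 in the other 4 libraries, and Xist, the RNA of the inactive X chromosome in female cells, was at 16772 and 12950 in control against 7 to 34 in the others. For animal experiments with these 3 genotypes, the study's methods describe male mice. In each comparison with control, sex and genotype therefore cannot be told apart, whereas the mdx libraries and those labelled Sirt6mKO/mdx both carried Y-linked RNA.

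Values are normalized read counts, that is, read counts divided by a size factor per library. A gene was tested when its mean was at least 5, and it was called when the adjusted p was at most 0.05 and the log2 fold change at least 1 in size (limma with Benjamini-Hochberg adjustment over 15915 genes). All 9 genes were in the table and all 9 passed the minimum mean. Per kilobase of exon, Sdc4 was the most abundant of the 9 in 6 of 6 libraries, with a mean of 1416 normalized reads per kb. It was followed by Gpc1 at 204, Sdc2 at 181, Sdc1 and Gpc4 at 108 each, Gpc3 at 70.0 and Sdc3 at 41.6. Gpc6 at 10.6 and Gpc2 at 6.90 were the lowest. The ranks between Sdc4 and the lowest pair changed from library to library, also within a group: Gpc1 ranked 2 or 3, Sdc2 from 2 to 4, Gpc4 from 3 to 6, Sdc1 from 4 to 6, and Gpc3 and Sdc3 from 5 to 7.

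**Figure D1:**
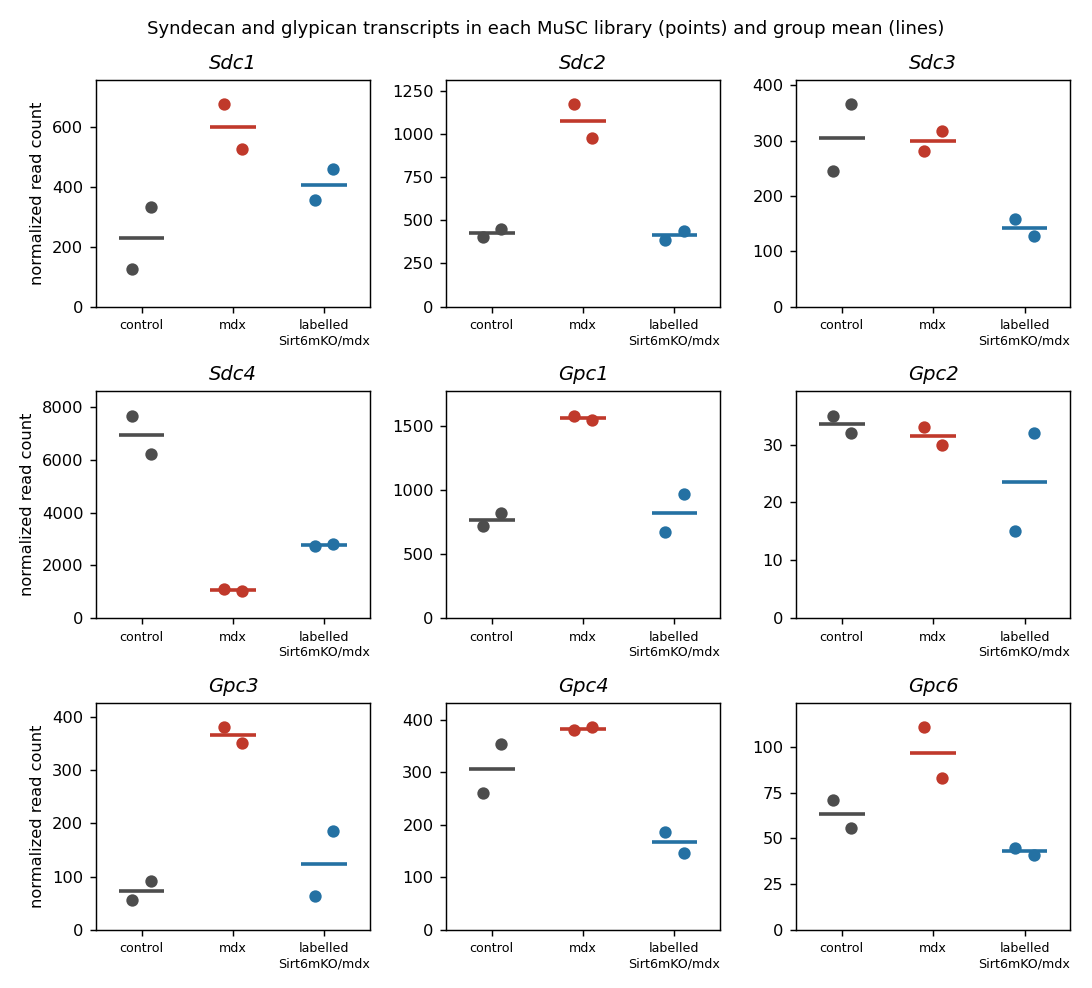
Normalized read count (y axes, from 0) of the 9 syndecan and glypican genes in each of the 6 MuSC libraries (points, 2 per group) with the group mean (lines), for control, mdx and the third group (labelled Sirt6mKO/mdx). The Sdc4 points of mdx (1100 and 1049) lie under those of both other groups, whereas the Sdc2, Gpc1 and Gpc3 points of mdx lie above them.

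Mdx was set against control to ask how MuSCs differ in dystrophic muscle. Sdc1, Sdc2, Gpc1 and Gpc3 were higher in mdx and Sdc4 was lower, so 5 of 9 genes were called, against 14.2% of all tested genes. By direction, 4 of the 9 were called higher, against 6.89% of tested genes, and 1 was called lower, against 7.34%. The median log2 fold change of the 9 was 0.60, beside 0.00 for all tested genes. To see what differs along with the deletion of Sirt6 in dystrophic muscle, the third group was set against mdx. Here Sdc4 was higher and Sdc2, Sdc3, Gpc3 and Gpc4 were lower, again 5 of 9, against 8.17% of tested genes. Lower calls numbered 4 of 9, against 2.54% of tested genes, and higher calls 1 of 9, against 5.62%. The median of the 9 was -1.07, beside 0.02 for all tested genes. Against control, Sdc3 and Sdc4 were lower in the third group, 2 of 9 against 7.87% of tested genes. Both calls were lower, against 2.68% of tested genes, and 0 were higher in limma, against 5.19%. Sdc1 was the 1 gene higher at an unadjusted p under 0.05 (p 0.0168). There the median was -0.54, beside 0.01 for all tested genes. In these comparisons, in this order, 7, 8 and 5 of the 9 genes had no overlap of values between groups, as had 57%, 56% and 51.6% of all tested genes. The 3 comparisons share libraries, so their values are given side by side for each gene and are not independent of each other. In bulk samples, fewer cells of a type and less RNA per cell cannot be told apart.

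**Figure D2:**
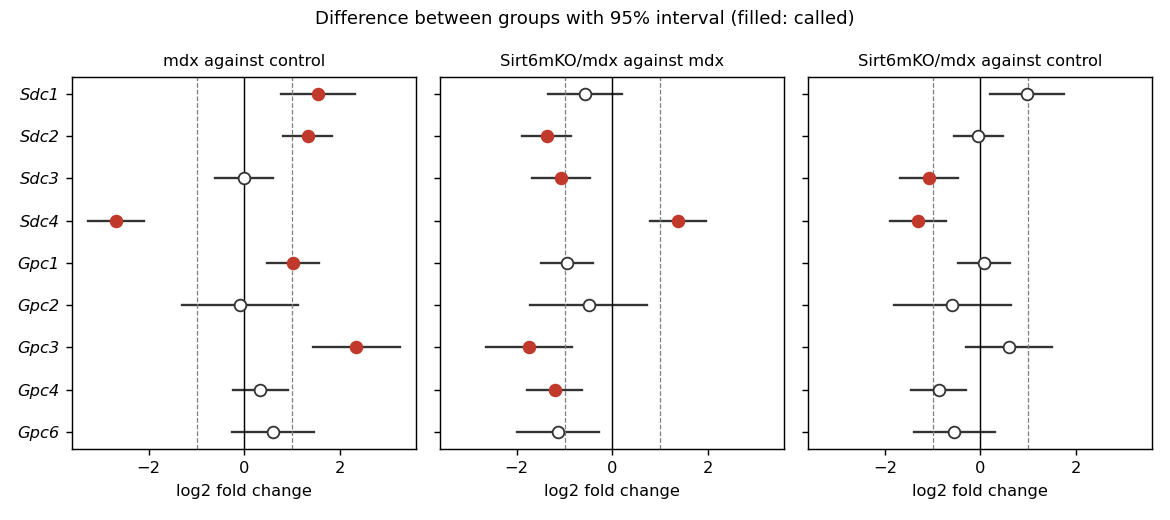
Log2 fold change (x axes, log2(value + 1) scale) with its 95% interval (lines) of the 9 genes in the 3 comparisons, where filled circles mark called genes, open circles genes not called, and dashed lines the minimum fold change. The first 2 panels share the mdx libraries; Sdc4 stands at -2.69 in the first and at 1.37 in the second, and Gpc3 at 2.34 and -1.75.

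Sdc4 encodes syndecan-4, a receptor of focal adhesions that binds fibronectin together with integrins and recruits protein kinase C alpha (ENSMUSG00000017009; GRCm38 chromosome 2, 164424247 to 164443887, minus strand). Its counts were 7692 and 6224 for control, 1100 and 1049 for mdx and 2753 and 2822 for the third group. The 3 groups did not overlap, with control the highest and mdx the lowest. Group means were 6958 ± 1038, 1074.5 ± 36.1 and 2787.5 ± 48.8 (SD, n = 2). Sdc4 was 6.44-fold lower in mdx than in control (log2 -2.69, SE 0.28, adjusted p 1.34e-05). This call held without any 1 of the 6 libraries, between -2.84 and -2.53. In the third group it was 2.59-fold higher than in mdx (log2 1.37, SE 0.28, adjusted p 0.00666). It remained 2.48-fold lower than in control (log2 -1.31, SE 0.28, adjusted p 0.0087). The call against mdx was lost without mdx replicate 2 (1.34, adjusted p 0.0646) or replicate 1 or 2 of the third group (1.39 and 1.36, adjusted p 0.125 and 0.105), and with total count scaling (0.75, adjusted p 0.0891). Against control it was lost without either library of the third group (-1.29 and -1.33). In limma both calls of the third group, against mdx and against control, were also lost without a minimum mean (adjusted p 0.0574 and 0.0576). The same held with 1 prior variance for all genes (adjusted p 0.115 and 0.108).

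A list of 15 immediate early genes and genes of the response to cell dissociation differed in the same groups. Their summed counts were 145512 and 156060 for control, 21818 and 24268 for mdx and 118795 and 108222 for the third group. All 15 were called lower in mdx than in control, all 15 were called higher in the third group than in mdx, and 2 were called lower there than in control. The part of this response in the level of Sdc4 was not tested.

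Sdc2 encodes syndecan-2, a syndecan of mesenchymal cells (ENSMUSG00000022261; chromosome 15, 32920723 to 33034730, plus strand). It stood at 406 and 448 for control, 1174 and 975 for mdx and 388 and 439 for the third group. Both mdx libraries were above the other 4, whose ranges overlapped. Sdc2 rose in mdx (log2 1.32, SE 0.24, adjusted p 0.00172), from a mean of 427 ± 29.7 to 1074.5 ± 141 (SD, n = 2). Without 1 library this value ranged from 1.19 to 1.46. The call was lost in limma with 1 prior variance for all genes (adjusted p 0.0661). In the third group its mean was 413.5 ± 36.1, with a log2 fold change of -1.37 against mdx (SE 0.24, adjusted p 0.00272). Without replicate 1 of the third group that call was lost (-1.28, adjusted p 0.0858). The difference from control was -0.05, with a 95% interval from -0.56 to 0.46 (adjusted p 0.937).

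Sdc1 encodes syndecan-1, the main syndecan of epithelia and plasma cells (ENSMUSG00000020592; chromosome 12, 8771323 to 8793715, plus strand). Its counts were 125 and 333 for control, 675 and 525 for mdx and 354 and 458 for the third group. The groups did not overlap, although the control libraries lay far apart. Sdc1 was higher in mdx than in control (log2 1.54, SE 0.36, adjusted p 0.00964). The call was lost without control replicate 1 (0.84, adjusted p 0.108), mdx replicate 1 (1.36, adjusted p 0.139) or mdx replicate 2 (1.72, adjusted p 0.0524), and without control replicate 2 the value was 2.24. Against mdx the third group differed by -0.56 (95% interval -1.34 to 0.21, adjusted p 0.36), and against control by 0.98 (0.20 to 1.75, adjusted p 0.111). Without 1 library that last difference ranged from 0.27 to 1.68, the latter without control replicate 2. Markers of B and plasma cells summed to 28 and 49 for control, 9 and 14 for mdx and 33 and 24 for the third group. Most of these sums came from Cd79a, the plasma cell markers Mzb1 and Tnfrsf17 were at 0 to 5 and at 0, and their part in the level of Sdc1 was not tested.

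Sdc3 encodes syndecan-3, a syndecan of nerve and muscle precursor cells (ENSMUSG00000025743; chromosome 4, 130792537 to 130826319, plus strand). It was at 245 and 366 for control, 282 and 318 for mdx and 158 and 127 for the third group. The mdx values lay within the control range, and both libraries of the third group lay under the other 4. Between mdx and control the log2 fold change was 0.00 (95% interval -0.61 to 0.61). The third group was lower than mdx (log2 -1.07, SE 0.29, adjusted p 0.0304) and lower than control (log2 -1.07, SE 0.29, adjusted p 0.0296). Without a library these values ranged from -1.23 to -0.92 and from -1.36 to -0.79, and both calls were lost without mdx replicate 1, mdx replicate 2 or either library of the third group. Without control replicate 2 the difference from control was -0.79 (adjusted p 0.191). Antisense genes share 6.9% and 0.8% of the exonic bases of Sdc3, and the use of strand in counting was not stated.

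Within the family, Sdc4 made up less of the syndecan RNA in mdx. Per kilobase it accounted for 94.1% and 89.9% of the 4 syndecans for control, 43.7% and 46.8% for mdx and 82.5% and 80.6% for the third group. Sdc4 had 18.9 and 13.9 times the normalized count of Sdc2 for control, 0.937 and 1.08 times for mdx and 7.10 and 6.43 times for the third group. These ratios are taken within a library and do not depend on how libraries were scaled. The summed level of the syndecans per kilobase was 3209 and 2719 for control, 989 and 879 for mdx and 1310 and 1374 for the third group. The summed glypican level was highest in mdx, with 278 and 343 for control, 617 and 597 for mdx and 235 and 327 for the third group.

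**Figure D3:**
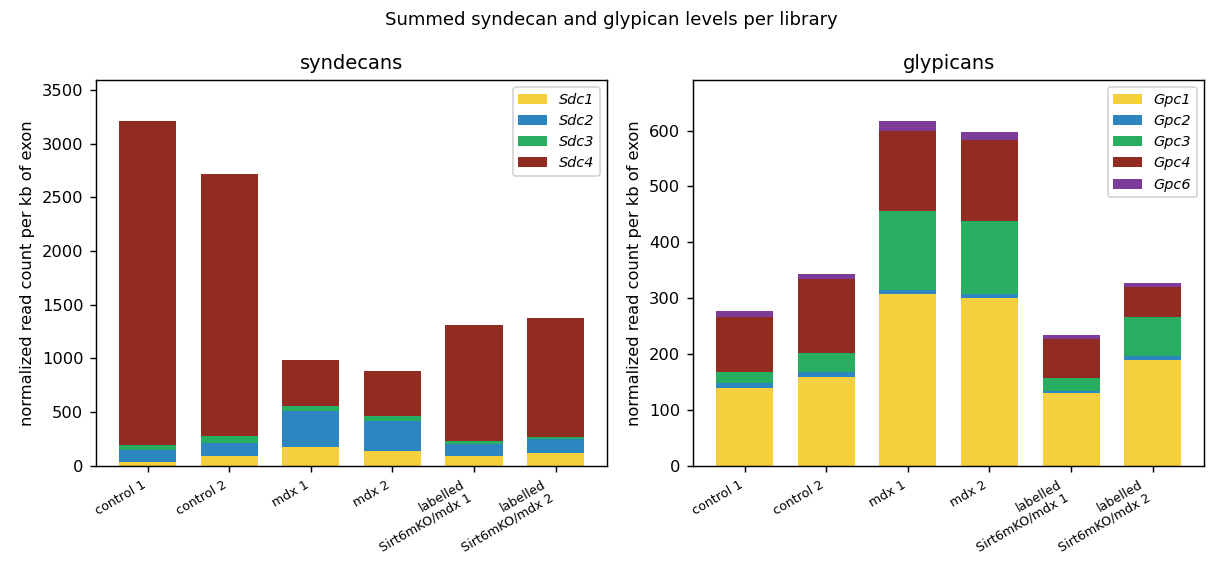
Normalized read count per kilobase of exon (y axes, from 0), stacked by gene, for the 4 syndecans and the 5 glypicans in each of the 6 libraries. Sdc4 forms most of the syndecan bar in control (94.1% and 89.9%) and less in mdx (43.7% and 46.8%), and the glypican bars are tallest in the mdx libraries.

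Gpc1 encodes glypican-1, which was the most abundant glypican per kilobase in these cells (ENSMUSG00000034220; chromosome 1, 92831645 to 92860198, plus strand). It stood at 718 and 824 for control, 1584 and 1550 for mdx and 673 and 974 for the third group. The mdx libraries were above all the others, and the control values lay within the range of the third group. Gpc1 was higher in mdx than in control (log2 1.03, SE 0.26, adjusted p 0.0132), just past the minimum fold change, with means of 1567 ± 24.0 and 771 ± 75.0 (SD, n = 2). Its call was lost without control replicate 1 (0.93, adjusted p 0.0822), mdx replicate 1 (1.01, adjusted p 0.0976) or mdx replicate 2 (1.04, adjusted p 0.0702). In the third group it differed from mdx by less than the minimum fold change (log2 -0.95, SE 0.26, adjusted p 0.0321) and was not called, although it was called with upper quartile scaling (-1.06, adjusted p 0.0159) and total count scaling (-1.58, adjusted p 0.0027). From control it differed by 0.07 (95% interval -0.47 to 0.62). Ankmy1, on the opposite strand, shares 18.9% of the exonic bases of Gpc1 in GENCODE. The share of Gpc1 in the glypican RNA per kilobase was 50.1% and 46.6% for control, 49.8% and 50.3% for mdx and 55.6% and 57.7% for the third group.

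Gpc3 and Gpc4 both lie on the X chromosome. Gpc3 encodes glypican-3, which binds Hedgehog and Wnt ligands and restrains body growth (ENSMUSG00000055653; chromosome X, 52272426 to 52613950, minus strand). Its counts were 56 and 91 for control, 381 and 352 for mdx and 63 and 186 for the third group. The group means were 73.5 ± 24.7, 366.5 ± 20.5 and 124.5 ± 87.0 (SD, n = 2). Both mdx libraries were above the other 4, and those of the third group lay far apart, with the control value of 91 between them. Gpc3 was 5.07-fold higher in mdx than in control (log2 2.34, SE 0.42, adjusted p 0.00172), and this call held without any 1 of the libraries. It was lower in the third group than in mdx (log2 -1.75, SE 0.42, adjusted p 0.0199). Without replicate 1 of the third group the value was -0.97 (adjusted p 0.286), and the call was also lost without mdx replicate 1 (-1.69, adjusted p 0.177) or mdx replicate 2 (-1.80, adjusted p 0.134). Against control the difference was 0.60 (SE 0.42, adjusted p 0.425). Pdgfra, a marker of fibro-adipogenic cells, was at 15 and 59 for control, 195 and 18 for mdx and 142 and 19 for the third group. Col1a1 was at 634 and 862 for control, 2013 and 1898 for mdx and 1136 and 747 for the third group, and Col1a2 at 196 and 416 for control, 4730 and 6265 for mdx and 1885 and 3535 for the third group. The whole list of 10 fibro-adipogenic markers, 3 of them called higher in mdx, summed to 21095 and 28055 for control, 43978 and 38268 for mdx and 23353 and 32397 for the third group. Most of each sum came from Col3a1. Col1a1, Col1a2, Col3a1 and Ly6a were above control in both mdx libraries. Dcn, Lum, Dpt and Smoc2 were above control in mdx replicate 1 and under it in mdx replicate 2. Pdgfra and Mfap5 were above control in mdx replicate 1 and within its range in mdx replicate 2. The part of this list in the values of Gpc3 was not tested.

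Gpc4 encodes glypican-4, a modulator of Wnt and FGF signals (ENSMUSG00000031119; chromosome X, 52053021 to 52165252, minus strand). It was at 261 and 353 for control, 380 and 386 for mdx and 186 and 147 for the third group. The groups did not overlap, and the third group was the lowest. Its log2 fold change in mdx was 0.33 (95% interval -0.24 to 0.91, adjusted p 0.432). The third group was lower than mdx (log2 -1.21, SE 0.27, adjusted p 0.0125), a difference between groups that both carried Y-linked RNA. Leaving out a library gave values from -1.38 to -1.04, and the call was lost without either mdx library or either library of the third group. Against control the value was -0.87 (SE 0.27, adjusted p 0.0575), which was not called, and without control replicate 1 it was -1.09 (adjusted p 0.0444). Gpc3 had 0.215 and 0.258 times the count of Gpc4 for control, 1.003 and 0.912 times for mdx and 0.339 and 1.27 times for the third group.

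The other glypicans were scarce. Gpc6 (ENSMUSG00000058571; chromosome 14, 116925297 to 117979529, plus strand), a close relative of Gpc4, had counts of 71 and 56 for control, 111 and 83 for mdx and 45 and 41 for the third group. Its groups did not overlap, yet its differences of 0.60 in mdx against control (95% interval -0.26 to 1.45) and -1.14 in the third group against mdx (SE 0.40, adjusted p 0.0889) were not called. Gpc2 (ENSMUSG00000029510; chromosome 5, 138264952 to 138280005, minus strand), a glypican of developing neurons, was at 35 and 32 for control, 33 and 30 for mdx and 15 and 32 for the third group, and its groups overlapped in all 3 comparisons. Its intervals were wide, from -1.30 to 1.13 in mdx against control and from -1.71 to 0.72 in the third group against mdx. Against control, Gpc6 and Gpc2 differed in the third group by -0.54 and -0.59 (adjusted p 0.443 and 0.58). Gpc2 shares 55.6% of its exonic bases with a gene on the same strand, so its values are uncertain.

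The genes that build, edit, release, bind or share heparan sulfate were read from 8 lists with 77 genes, of which 61 passed the minimum mean. In mdx against control 13 of the 61 were called, 7 higher and 6 lower, with a median of 0.00. In the third group against mdx 6 were called, 1 higher and 5 lower (median -0.38), and against control 4 were called, 2 in each direction (median -0.22). The shares of all tested genes called in these comparisons were 14.2%, 8.17% and 7.87%.

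Of the 11 genes that assemble the chain, Extl2 was the 1 called in mdx against control and in the third group against mdx. EXTL2 is a glycosyltransferase that acts on the linkage region, and its counts were 66 and 93 for control, 234 and 190 for mdx and 99 and 74 for the third group. It was higher in mdx than in control (log2 1.42, SE 0.34, adjusted p 0.0106) and lower in the third group than in mdx (log2 -1.29, SE 0.34, adjusted p 0.0291). The chain polymerase genes Ext1 and Ext2 were not called, and Ext1 ranged only from 549 to 645 over the 6 libraries.

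Of 9 tested genes that sulfate or epimerize the chain, 1 was called in each comparison. Hs6st3, a 6-O-sulfotransferase gene, was at 133 and 81 for control and 27 and 6 for mdx (log2 -2.90, SE 0.70, adjusted p 0.011). Hs6st2, another gene of that family, was at 434 and 692 for control, 965 and 894 for mdx and 362 and 424 for the third group, and was lower in the last than in mdx (log2 -1.24, SE 0.27, adjusted p 0.00986). Ndst1, whose enzyme starts sulfation of the chain, was at 971 and 1097 for control and 503 and 437 for the third group, a difference of -1.14 (SE 0.24, adjusted p 0.0087). Of the sulfatases that edit the chain outside the cell, Sulf1 stood between 523 and 1119 and Sulf2 between 14 and 36, and neither was called.

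Of 6 tested genes in the list for release from the surface, 4 encode proteases (Adam10, Adam17, Mmp2 and Mmp14), and the others are Gpld1, whose enzyme cuts lipid anchors, and Notum, a lipase gene. Adam10 and Mmp14 were called in mdx. Adam10 was at 400 and 508 for control and 955 and 872 for mdx (1.02, SE 0.27, adjusted p 0.0177). Mmp14, the gene of a membrane bound matrix metalloproteinase, was at 267 and 298 for control, 568 and 571 for mdx and 175 and 216 for the third group. It was higher in mdx (log2 1.01, SE 0.25, adjusted p 0.0131) and lower in the third group than in mdx (log2 -1.55, SE 0.25, adjusted p 0.00152). Both values in mdx lie near the minimum fold change.

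Among 7 tested genes of other heparan sulfate proteoglycans, Hspg2, which encodes perlecan of the basement membrane, had the highest counts, from 4230 to 10376, and was not called. Tgfbr3, which encodes betaglycan, was at 4986 and 5835 for control, 1738 and 1533 for mdx and 2674 and 1621 for the third group. It was lower than in control both in mdx (log2 -1.72, SE 0.30, adjusted p 0.00136) and in the third group (log2 -1.37, SE 0.30, adjusted p 0.0116). Col18a1, the gene of a basement membrane collagen that carries heparan sulfate, was at 468 and 625 for control, 1118 and 1525 for mdx and 548 and 689 for the third group, which gave 1.27 in mdx against control (SE 0.26, adjusted p 0.00437) and -1.09 in the third group against mdx (SE 0.26, adjusted p 0.0198). Of the 8 genes for proteins that bind the syndecan tail or act next to it, 0 were called by limma in mdx against control or in the third group against mdx (0 and 1 at an unadjusted p under 0.05), with differences from -0.67 to 0.79. Sdcbp, which encodes the adaptor syntenin, was higher in the third group (1233 and 1119) than in control (739 and 458) (log2 1.01, SE 0.27, adjusted p 0.031).

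**Figure D4:**
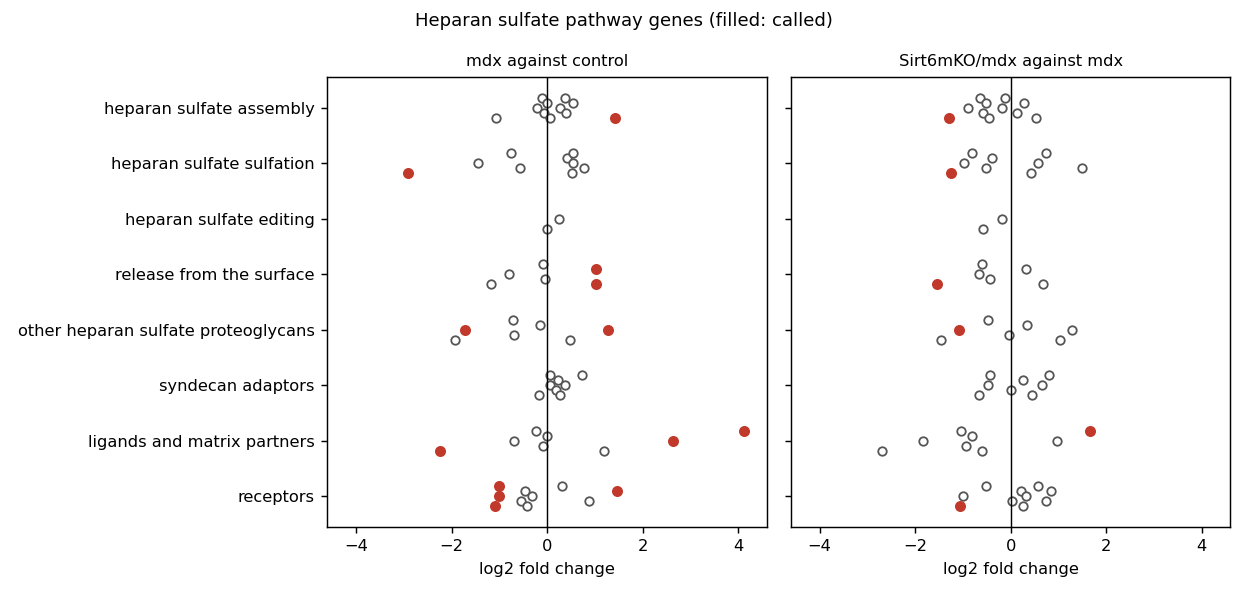
Log2 fold change (x axes, log2(value + 1) scale) of the 61 tested genes of the 8 lists (rows) in mdx against control and in the third group against mdx, where each point is a gene and filled points were called. In the first panel 13 points are filled, on both sides of 0, and in the second 6; the point farthest to the right is Ptn, whose control counts were 0, so its place depends on the pseudocount.

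Ligands and matrix partners of the chains included Vegfa, Tnc and Ptn among 8 tested genes. Vegfa, a growth factor for blood vessels, was at 873 and 975 for control, 169 and 225 for mdx and 599 and 635 for the third group. It was lower in mdx (log2 -2.24, SE 0.25, adjusted p 2.5e-05) and higher in the third group than in mdx (log2 1.66, SE 0.25, adjusted p 0.00074). Tnc, which encodes tenascin C of regenerating matrix, was at 48 and 140 for control, 447 and 596 for mdx and 192 and 449 for the third group, with differences from control of 2.64 (SE 0.45, adjusted p 0.000986) and 1.83 (SE 0.45, adjusted p 0.0196). Ptn, which encodes the syndecan ligand pleiotrophin, was at 0 in both control libraries and at 15 and 18 in mdx. It was at least 10.7-fold higher in mdx, against a floor of 3 counts over the control group.

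Of the 10 receptor genes, Fgfr1, Fzd7 and Ptch1 were called lower and Met was called higher in mdx. Met, the HGF receptor gene, was at 562 and 524 for control, 1489 and 1486 for mdx and 610 and 821 for the third group. It was higher in mdx (log2 1.45, SE 0.25, adjusted p 0.000982) and lower in the third group than in mdx (log2 -1.07, SE 0.25, adjusted p 0.0143). Fgfr1, the gene of an FGF receptor, was at 5832 and 4395 for control and 2444 and 2619 for mdx, a lower level that only just passed the minimum fold change (SE 0.30 on the log2 scale, adjusted p 0.0341). The receptor genes of Wnt (Fzd7, -1.10, adjusted p 0.0397) and Hedgehog (Ptch1, -1.01, adjusted p 0.0177) were also lower in mdx.

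Other markers differed between the groups as well. Of 6 proliferation genes, 5 were called higher in mdx than in control and 3 lower in the third group than in mdx, with sums of 191 and 326 for control, 886 and 1516 for mdx and 340 and 596 for the third group. Markers of myofibres summed to 7054 and 8870 for control, 4987 and 1503 for mdx and 10667 and 4896 for the third group. Of the 8, 4 (Acta1, Ckm, Myh1 and Myh2) were called lower in mdx than in control, and 3 (Acta1, Myh1 and Myh2) higher in the third group than in mdx. Of 6 tested endothelial markers 2 (Pecam1 and Kdr) were called lower in mdx than in control, and Kdr was at 0 to 19. The list summed to 943 and 787 for control, 417 and 434 for mdx and 641 and 649 for the third group. Most of each sum came from Tek, which was not called in any comparison. Smooth muscle and pericyte markers summed to 9413 and 8926 for control, 7698 and 8997 for mdx and 4644 and 4963 for the third group. Most of each sum came from Notch3, while Rgs5, Myh11, Cspg4 and Pdgfrb had their highest mean in the third group. Of the 7 listed, Tagln was called lower in the third group than in mdx, Tagln and Notch3 lower than in control, and Acta2 higher in mdx than in control. Markers of macrophages and leukocytes summed to 121 and 139 for control, 122 and 97 for mdx and 208 and 204 for the third group. Of these, Lyz2 was called higher than in control in mdx and in the third group, and Cd68 lower in mdx than in control. Schwann cell markers summed to between 106 and 222 in the 6 libraries. The part of these differences in the levels of the syndecans and glypicans was not tested.

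Genes with the most similar course over the 6 libraries were found by Pearson's r of log2(value + 1) among 9665 genes with a mean of at least 50, as a description. For Sdc4 these were Sf3b1 (r = 0.998), Rybp and Slc35e2, and 231 genes reached an r of 0.95. Sf3b1, which encodes a splicing factor, was at 4612 and 4411 for control, 2429 and 2353 for mdx and 3354 and 3435 for the third group. Dlg3, Acadsb and Fkbp14 were most like Sdc2, Ifngr2, Cnot8 and Hsd17b10 most like Sdc1, and BC026590, Sel1l and Ralgapb most like Sdc3. Among the glypicans, Ndufs1, Cd164 and Fkbp10 were most like Gpc1, Sec23a, Ppp3r1 and Maged2 most like Gpc3, and Zdhhc21, Ube2r2 and 6330408A02Rik most like Gpc4. Between 107 and 231 genes reached 0.95 for each of these 7 genes.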

How the data were processed

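Per the labels and the study's methods, the authors sequenced ribosome-depleted total RNA of sorted MuSCs, aligned reads with STAR to GRCm38 (mm10) and counted them per gene with featureCounts. The submitters' processing notes name FastQC 0.10.1, STAR 2.4.2a, featureCounts 1.4.5-p1 and DESeq2 1.6.0, whereas the methods give another release of STAR. The deposited values are whole numbers whose skipped and doubled values show division of the counts by 1 factor per library (0.537 to 1.527) and rounding, so the authors' unit was treated as a score, a normalized read count. Value times factor gave the approximate reads (4397632 to 9745218 per library).

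The test was that of limma 3.58.1 (R 4.3.3), applied to log2(value + 1) with a mean-dependent prior variance, with all 6 libraries of the 3 groups in 1 fit without a block. Genes with a mean of at least 5 were tested (15915 of 22706). Fold changes are on this scale and understate those of low genes. Adjusted p-values (Benjamini-Hochberg, two-sided) cover all tested genes. Calls needed an adjusted p of at most 0.05 and a log2 fold change of at least 1 in size. The script was tested on simulated data. Exon lengths come from GENCODE M21, which held 98.53% of the gene identifiers.

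The 9 genes and the lists were chosen with earlier results of these data known. All 9 genes were reported, and from each list the called genes and up to 4 of the most abundant. Genes most like a member were named for called members with a mean of at least 50 (3 each). Alternatives changed the pseudocount, minimum mean, scaling, prior variance, groups in the fit, block and libraries. Replicate numbers did not pair the libraries. The floor for a gene at 0 was 3 counts over the group, and it covers counting error only.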

Additional observations from a re-analysis of the deposited data

How the results depend on the processing

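Of the 12 calls of syndecan and glypican genes, all 12 were kept with a pseudocount of 0.1 or 10, a minimum mean of 50, median ratio or upper quartile scaling, a robust prior variance, and voom on approximate reads, an alternative chosen after seeing the data. None of the 12 changed direction under any alternative. Replicate numbers did not pair the libraries (correlations of deviations of -0.128, 0.119 and 0.0093), and the replicate block left 5, 5 and 2 genes called in mdx against control, the libraries labelled Sirt6mKO/mdx against mdx, and the latter against control. A crossed block of mdx, chosen after seeing the data, kept 12 of the 12 calls.

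In the same order of comparisons, the main test called 2265, 1300 and 1253 of 15915 genes. Without a minimum mean, 989, 168 and 221 of 22489 genes were called. Among them were 2, 1 and 0 of the 9 genes and 7, 2 and 0 genes of the 8 lists. The calls of the 9 kept there were Sdc2 and Sdc4 in mdx against control and Sdc2 in the third group against mdx. With 1 prior variance for all genes, 541, 0 and 87 genes were called, among them 1, 0 and 0 of the 9 and 2, 0 and 0 of the lists. With that prior variance, Sdc4 in mdx against control was the call kept. The cause was not tested. Fitting only the groups compared left 1 of the 9 and 2 list genes called against control in the third group. Sdc3 was lost there, and 870 of all tested genes were called. Total count scaling took the median log2 fold change of all genes to -0.58 in both comparisons of the third group. List genes called there rose to 25 against mdx and 19 against control, and the medians of the 9 genes moved to -1.70 and -1.13. Against mdx, Sdc4 was at 0.75 and lost its call there, while Gpc1 (-1.58), Gpc6 (-1.76) and Sdc1 (-1.19) gained one, as did Gpc4 against control (-1.47). Calls over all genes split into 479 higher and 2932 lower against mdx with total count scaling, beside 895 and 405, and into 455 and 2693 against control, beside 826 and 427. With total count scaling, Gpc3 and Gpc1 differed from control by -0.0023 and -0.53 in the third group. Upper quartile scaling gained the call of Gpc1 against mdx (-1.06) and split the calls over all genes there into 718 higher and 623 lower.

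Leaving out 1 library gave 3 to 5, 0 to 5 and 0 to 3 of the 9 genes called and 4 to 15, 1 to 6 and 0 to 3 list genes. In the same order of comparisons, the medians of the 9 genes ranged from 0.39 to 0.81, from -1.07 to -0.94 and from -0.65 to -0.063 without 1 library. Some uncalled differences changed sign. Against control in the third group Gpc1 ranged from -0.19 to 0.34, Sdc2 from -0.14 to 0.042 and Gpc3 from -0.18 to 1.37. Against mdx in the third group Gpc2 ranged from -1.02 to 0.024, and in mdx against control Sdc3 ranged from -0.29 to 0.29. A lone library left in a group is assumed there to vary like the others.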
